A study of Mus musculus with 12 samples.

Results

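Oxidative phosphorylation is carried out by 5 protein complexes of the inner mitochondrial membrane, and the nuclear genes of their subunits were followed in lung group 2 innate lymphoid cells (ILC2s). The genes were chosen by symbol: Nduf followed by a, b, c, s or v and a digit for complex I, Sdha to Sdhd for complex II, Uqcr for complex III, Cox followed by a digit from 4 to 8 for complex IV, and Atp5 for complex V. Of the 24346 gene symbols in the series, 84 matched, and the 78 with a mean of at least 1 FPKM over the 12 libraries were kept. FPKM is a count of sequenced fragments scaled for the length of the gene and the size of the library.

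Complexes I and II pass electrons from NADH and succinate to ubiquinone, complex III passes them on to cytochrome c, and complex IV hands them to oxygen. Complexes I, III and IV pump protons as they work, and complex V, the ATP synthase, makes ATP as protons flow back. ILC2s are innate lymphocytes of the lung that secrete type 2 cytokines, and lymphocytes that become active draw on both this chain and glycolysis for energy.

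The libraries were of ILC2s sorted from mouse lungs as CD45-positive, lineage-negative cells that carry Thy1.2 and ST2, the receptor for IL-33. WT and *Sema6d*-deficient mice (6DKO), both C57BL/6 by the labels and C57BL/6J by the study's methods, received PBS or the alarmin IL-33, to which ILC2s respond, through the nose for 3 days. The age of the mice behind these libraries is not among their labels, and the study's methods give only an age range for all its mice. By the labels and methods the 6DKO mice lack *Sema6d*, the gene of the transmembrane protein semaphorin 6D, in the whole body and not in ILC2s alone. Transcripts of *Sema6d* were still measured in every 6DKO library, at 29.0, 22.9 and 19.8 FPKM with PBS (WT 27.5, 46.1 and 37.5, with overlap) and 15.4, 13.6 and 13.8 FPKM with IL-33 (WT 19.7, 35.5 and 28.7, without overlap), so these values do not show the loss. The labels give an IL-33 dose of 50 ng, and the study's methods give another dose and another library kit than the labels, so neither is settled here. There were 3 libraries in each of 4 groups: WT PBS, 6DKO PBS, WT IL-33 and 6DKO IL-33. Values of a group are given for replicates 1, 2 and 3 in turn.

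The label of the cells was checked against marker genes. All 14 ILC2 markers were above 0 in every library, with sums of 6668 to 10088 FPKM, and *Id2* was the most abundant of them in every library except 6DKO PBS replicate 3, where it was *Areg*. Of 10 T cell markers 7 were in the files; *Cd3g* was at 189.7 to 479.8 FPKM and *Cd4* was listed at 0 in all 12 libraries. The 6DKO PBS replicate 2 library stood apart, with *Ncr1* at 58.9 and *Prf1* at 36.3 FPKM, a sum of 106.1 over 5 natural killer cell markers against at most 7.93 in the other libraries, and *Lyz2* at 112 FPKM. Over 6 mesenchymal markers its sum was 4.51 FPKM, against at most 0.540 elsewhere. Of 6 B cell markers 5 were in the files, with a sum of at most 26.9 FPKM, mostly *Cd79b*, and with *Ms4a1* and *Pax5* listed at 0 in all libraries; in 5 endothelial markers the sum was 1.32 (WT PBS replicate 2, most abundant *Kdr*) to 23.1 FPKM (6DKO PBS replicate 2, most abundant *Cldn5*), with *Pecam1* the most abundant in the others.

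Libraries from IL-33-treated mice had fewer genes at 0 than those from PBS-treated mice, and most were deeper. Relative depth was read from the most common ratio to WT IL-33 replicate 3, set to 1, among weakly expressed genes (under 3 FPKM in every library). It was 0.739 to 0.998 in the PBS libraries and 0.968 to 1.39 in the IL-33 libraries. The most common ratio rested on 37 to 97 genes in a library. Among 3617 genes whose mean lay between 5 and 20 FPKM, each PBS library had 169 to 641 at 0, and each IL-33 library 25 to 50. Libraries of like depth differed in this count. It was 237 in 6DKO PBS replicate 3 (depth 0.998) and 39 in 6DKO IL-33 replicate 2 (0.968). In WT PBS replicates 2 (0.889) and 3 (0.887) it was 536 and 169. The spread between replicates differed in the same way. The median SD of the 78 genes between the replicates of a group came to 0.36 on the log2(FPKM + 1) scale in WT PBS, 0.34 in 6DKO PBS, 0.11 in WT IL-33 and 0.13 in 6DKO IL-33. Over all 11395 genes tested it was 0.66, 0.70, 0.29 and 0.28 in the same order. The part of depth in the differences between PBS and IL-33 libraries was not tested.

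Most of the 78 genes were abundant, and 4 had a mean under 20 FPKM. Their median level was 258 FPKM, against 9.61 FPKM over all genes tested, and 67 of them had a mean of at least 100 FPKM, a level reached by 1082 of the 11395 genes. *Cox4i1* was the highest at 1052 FPKM. The median level was 202 FPKM in complex I (36 genes), 148 in complex II (4 genes), 392 in complex III (8 genes), 401 in complex IV (13 genes) and 418 in complex V (17 genes). Together the 78 genes made up 2.80% to 3.91% of all FPKM in a library. Just inside the limit of 1 FPKM were *Cox6b2* (2.21 FPKM) and *Cox7a1* (8.09 FPKM), and just outside it *Cox4i2* (0.360 FPKM) and *Cox6a2* (0.0855 FPKM). *Ndufa4l2*, *Cox7b2*, *Cox8b* and *Cox8c* were listed at 0 in all 12 libraries. All 78 genes passed the limit of 0.5 FPKM for the test, and 76 were above 0 in all 12 libraries.

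The mean log2(FPKM + 1) over the 78 genes was 7.67, 7.77 and 7.48 in the WT PBS libraries and 7.44, 7.70 and 7.79 in the 6DKO PBS libraries. It was 8.01, 7.95 and 7.996 in the WT IL-33 libraries and 7.86, 7.77 and 7.82 in the 6DKO IL-33 libraries. The 3 WT IL-33 libraries were thus the highest of the 12, above every WT PBS and every 6DKO IL-33 library, while the 6DKO IL-33 and 6DKO PBS libraries overlapped. Group means were 7.64 ± 0.15 (SD, n = 3) in WT PBS, 7.64 ± 0.18 in 6DKO PBS, 7.99 ± 0.03 in WT IL-33 and 7.82 ± 0.04 in 6DKO IL-33. IL-33 minus PBS came to 0.34 in WT and 0.17 in 6DKO (0.27 and 0.13 over the 76 genes above 0 in all libraries, since *Cox6b2* and *Cox7a1* were at 0 in most PBS libraries), and 6DKO minus WT came to -0.17 under IL-33 and to 0.00 under PBS. When each library was left out in turn, IL-33 minus PBS in 6DKO ranged from 0.07 to 0.25. These differences share groups, so they are not independent of each other, and they were not tested. With quantile normalization, which gives all libraries the same distribution, the 4 differences were 0.32, 0.17, -0.12 and 0.03. The share of all FPKM told the same order under IL-33, at 3.88%, 3.83% and 3.91% in WT and 3.64%, 3.52% and 3.56% in 6DKO libraries. In 49 of the 78 genes WT IL-33 had the highest mean of the 4 groups, and in 34 WT PBS and in 29 6DKO PBS had the lowest.

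**Figure D1:**
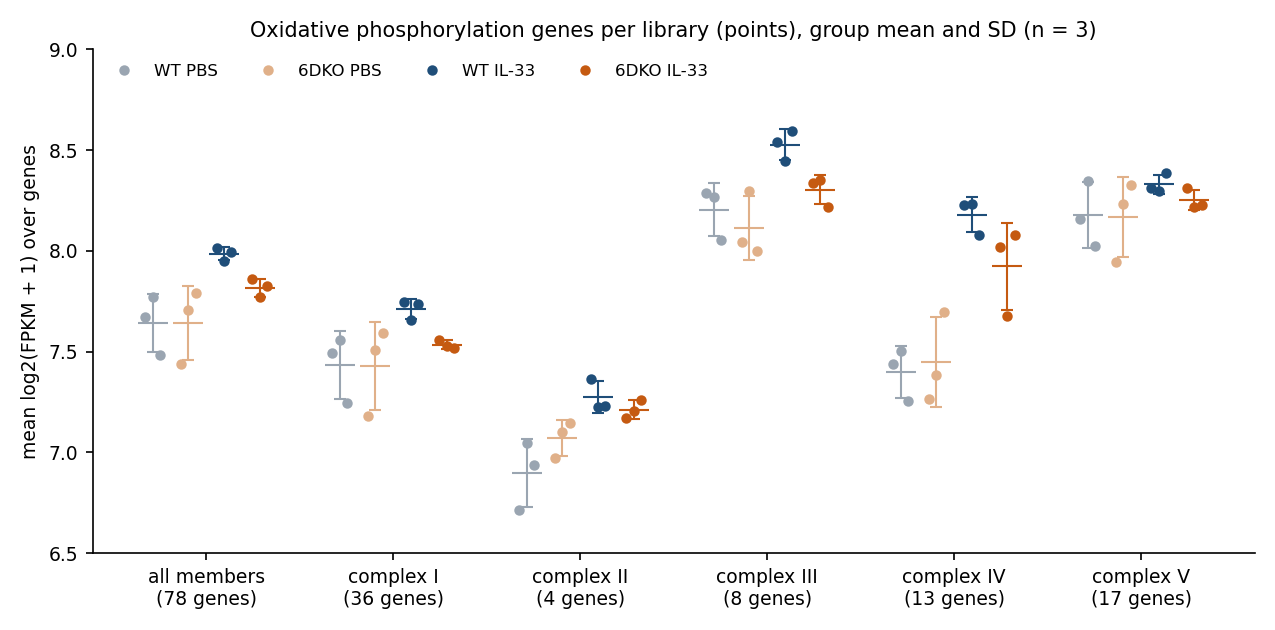
Mean log2(FPKM + 1) over all 78 genes and over the genes of each complex (vertical axis), with a point for each library and bars for the group mean and SD (n = 3) of the 4 groups. Over all 78 genes the WT IL-33 libraries sit between 7.95 and 8.01 and the 6DKO IL-33 libraries between 7.77 and 7.86.

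The order held in most complexes but not to the same extent. Over the 36 complex I genes, the mean was 7.75, 7.65 and 7.73 in WT IL-33 and 7.56, 7.53 and 7.52 in 6DKO IL-33 libraries, a difference of -0.18 with no overlap. Over the 8 complex III genes, it was 8.54, 8.44 and 8.60 in WT IL-33 and 8.34, 8.35 and 8.22 in 6DKO IL-33 libraries, a difference of -0.22, again with no overlap. Complex IV gave -0.26 over its 13 genes and -0.18 over the 11 that were above 0 in all libraries, without overlap in either case. In complexes II (-0.06) and V (-0.08) the genotypes overlapped under IL-33. IL-33 minus PBS in WT was 0.28 in complex I, 0.37 in complex II, 0.32 in complex III and 0.36 over the 11 complex IV genes, all with no overlap between libraries, and 0.15 in complex V, with overlap. Over all 13 complex IV genes it was 0.78, with no overlap. In 6DKO the same difference was 0.11, 0.14, 0.19, 0.24 and 0.08, and the libraries overlapped except in complex II and over the 11 complex IV genes; over all 13 it was 0.48, with overlap. Under PBS the genotypes overlapped in every complex, with differences from -0.09 (complex III) to 0.17 (complex II).

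Single genes were tested with limma, in which p-values measure a difference against the spread between libraries and are adjusted over the 11395 genes tested. All 4 groups were fitted together and shared 1 estimate of the spread for each gene, although the PBS libraries varied more than the IL-33 libraries. A comparison within 1 treatment was thus not measured against the spread of that treatment alone. A call means an adjusted p under 0.05, and fold changes are differences of mean log2(FPKM + 1), which understate the change of genes with low values. In WT, IL-33 raised 4 of the 78 genes (*Cox5a*, *Uqcrq*, *Ndufa8* and *Cox7a1*) and lowered 0, against 2.66% of all genes called higher and 1.61% called lower. At an unadjusted p under 0.05, limma gave 22 genes higher and 0 lower, where 17.6% of all genes passed in either direction. In 18 genes the 3 IL-33 libraries lay above the 3 PBS libraries and in 2 below them, against 15.9% and 9.23% of all genes. Of the 1082 genes with at least 100 FPKM, the same held for 269 (above) and 194 (below). Among those 1082, limma called 82 higher and 81 lower. The fold change was above 0 in 64 of the 78, with a median of 0.26, against a median of 0.16 over all genes and 0.12 over the 1082 genes with at least 100 FPKM. The reference point moved with the processing: with quantile normalization the median of all genes went from 0.16 to -0.04 in WT and from 0.14 to -0.02 in 6DKO, and 60 of the 78 genes were above 0 in WT with a median of 0.25. With a pseudocount of 0.1 the median of all genes (0.297 in WT, 0.273 in 6DKO) lay above that of the 78 (0.262 and 0.125). Without WT PBS replicate 3 the median in WT was 0.193, with 51 of the 78 above 0, against 0.189 over all genes. Without WT IL-33 replicate 1 the number of the 78 genes called was 0, where 1.7% of all genes were called (4.27% with all libraries). Without replicate 2 it was 2 (*Cox5a* and *Uqcrq*), against 2.07%, and without replicate 3 it was 1 (*Cox6b2*, listed at 0 in that replicate), against 1.96%. It was 6 without WT PBS replicate 2 (4.53% of all genes), 3 without WT PBS replicate 3 (5.16%) and 5 without 6DKO PBS replicate 3 (4.92%). When a 6DKO IL-33 library was left out it was 3 (3.23% to 3.43%).

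In 6DKO, limma called 0 of the 78 genes after IL-33 in either direction, against 1.75% of all genes called higher and 1.1% called lower. At an unadjusted p under 0.05, 9 were higher and 3 lower, where 15.2% of all genes passed. In 12 genes the 3 IL-33 libraries lay above and in 3 below the PBS libraries, against 13.9% and 8.75% of all genes. Of the 1082 genes with at least 100 FPKM, the same held for 208 (above) and 167 (below). Among those 1082, limma called 38 higher and 59 lower. The median fold change of the 78 genes was 0.12, against 0.14 over all genes, and 51 of the 78 were above 0. Without 6DKO PBS replicate 1 it was 0.0170 with 40 genes above 0 (all genes 0.0650), and with array weights 0.0472 with 44 above 0 (all genes 0.117). Leaving out 6DKO PBS replicate 2 gave 1 call (*Uqcrc2*), against 3.88% of all genes called. Leaving out replicate 3 gave 2 (*Cox7a1* and *Ndufa4*), against 3.13%. Whether the responses of the genotypes differed was tested as the interaction of genotype and treatment, in which limma called 0 of the 78 genes, against 0.0176% of all genes. At an unadjusted p under 0.05 the interaction gave 2 genes with a positive and 8 with a negative value, where 5.57% of all genes passed. The interaction was below 0 in 51 of the 78 genes, with a median of -0.17, against -0.02 over all genes. The median was -0.0953 without WT PBS replicate 3 (46 below 0), -0.257 without WT PBS replicate 2 (56) and -0.261 without 6DKO PBS replicate 1 (58).

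Between the genotypes under IL-33, the values of the 78 genes leaned to one side by a small amount, and limma called 0 of them, against 0.00878% of all genes called. At an unadjusted p under 0.05, limma gave 0 genes higher and 1 lower (*Uqcrq*), where 1.83% of all genes passed. The count at that limit was 22 of the 78 (1050 of 11395 genes, 0 called) with the IL-33 groups fitted alone, and 23 (1085 genes, 55 called) with array weights, where *Uqcrq* was called. The fold change was below 0 in 69 of the 78 (88.5%), with a median of -0.17. Over all genes tested 48.4% were below 0, with a median of 0.01, and over the 1015 genes outside the 78 with at least 100 FPKM, a group chosen after the data were seen, 62.7% were below 0, with a median of -0.07. In 29 genes all 3 6DKO libraries lay below all 3 WT libraries and in 2 (*Atp5s* and *Atp5sl*) above them, against 7.35% and 6.88% of all genes. Of the 1015 abundant genes outside the 78, the same held for 190 genes (lower) and 65 (higher). With quantile normalization 59 of the 78 were below 0, with a median of -0.12. Each 6DKO IL-33 library contributed: 65, 66 and 68 of the 78 genes were below the WT mean in replicates 1, 2 and 3, and 44, 46 and 54 were below the lowest WT library. No left-out library changed the count of 0 calls, and 64 to 69 of the 78 genes were below 0 in each case. In bulk samples, fewer cells of a type and less RNA per cell cannot be told apart.

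Markers of other cells differed between the same groups. The 18 macrophage and dendritic cell markers, all found in the files, summed to 74.7, 89.7 and 226 FPKM in the WT IL-33 libraries and to 302, 715 and 472 FPKM in the 6DKO IL-33 libraries, with no overlap. *H2-Aa*, a class II antigen presentation gene, was the most abundant in every IL-33 library (67.6, 80.5 and 225 FPKM in WT, 291, 280.0 and 324 in 6DKO) except 6DKO replicate 2, where it was *Chil3* at 394 FPKM. *Lyz2* was at 0.724, 3.93 and 0.720 FPKM in WT IL-33 and 5.40, 22.2 and 57.9 FPKM in 6DKO IL-33 libraries, and *Cd68* at 1.15, 0 and 0 and 4.87, 4.15 and 2.096 FPKM, both without overlap. *Chil3* was at 0 and 83.1 FPKM in 6DKO IL-33 replicates 1 and 3 and at most 4.29 FPKM in WT IL-33 libraries. *C1qb* was at 0.128, 5.47 and 2.30 FPKM in 6DKO IL-33 and 0.206, 0 and 0 FPKM in WT IL-33 libraries, and *Ear2* at 0, 7.63 and 1.98 and 0, 3.50 and 0 FPKM, both with overlap. *Marco*, *Fcgr1* and *Itgam* were listed at 0 in the 3 6DKO IL-33 libraries, *Adgre1* and *Csf1r* reached at most 0.0360 and 0.0298 FPKM, and 9 to 10 of the 18 genes were listed at 0 in those libraries, against 8 to 14 in the WT IL-33 libraries. The sort gate was lineage-negative. Under PBS the sums were 2.03, 1.20 and 50.8 FPKM in WT and 102, 252 and 44.3 FPKM in 6DKO libraries. The part of these markers in the difference between the genotypes was not tested.

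With all libraries, the 78 genes did not lean to either side between the genotypes under PBS. The fold change was above 0 in 39 and below 0 in 38, with a median of 0.00, as over all genes. Without WT PBS replicate 2, 43 were above and 34 below 0 (median 0.0851). Without WT PBS replicate 3, 31 were above and 46 below 0 (median -0.0494). With array weights 44 were above and 33 below 0. 1 gene fell in 6DKO (*Ndufa4*) and 0 rose, against 0.579% of all genes called. At an unadjusted p under 0.05, limma gave 8 genes higher and 8 lower, where 12.9% of all genes passed. With the PBS groups fitted alone, 6 of the 78 and 520 of all genes passed that limit, and limma called 0 of the 78 and 1 of all genes. In 5 genes the 6DKO libraries lay above and in 5 below the WT libraries, against 4.42% and 4.2% of all genes. The count of calls was 0 without WT PBS replicate 1 (0.879% of all genes called) and without any of the 6 IL-33 libraries (0.185% to 0.272%). Without WT PBS replicate 2 (0.746%) the call was another gene, *Atp5f1*, which was higher in 6DKO.

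**Figure D2:**
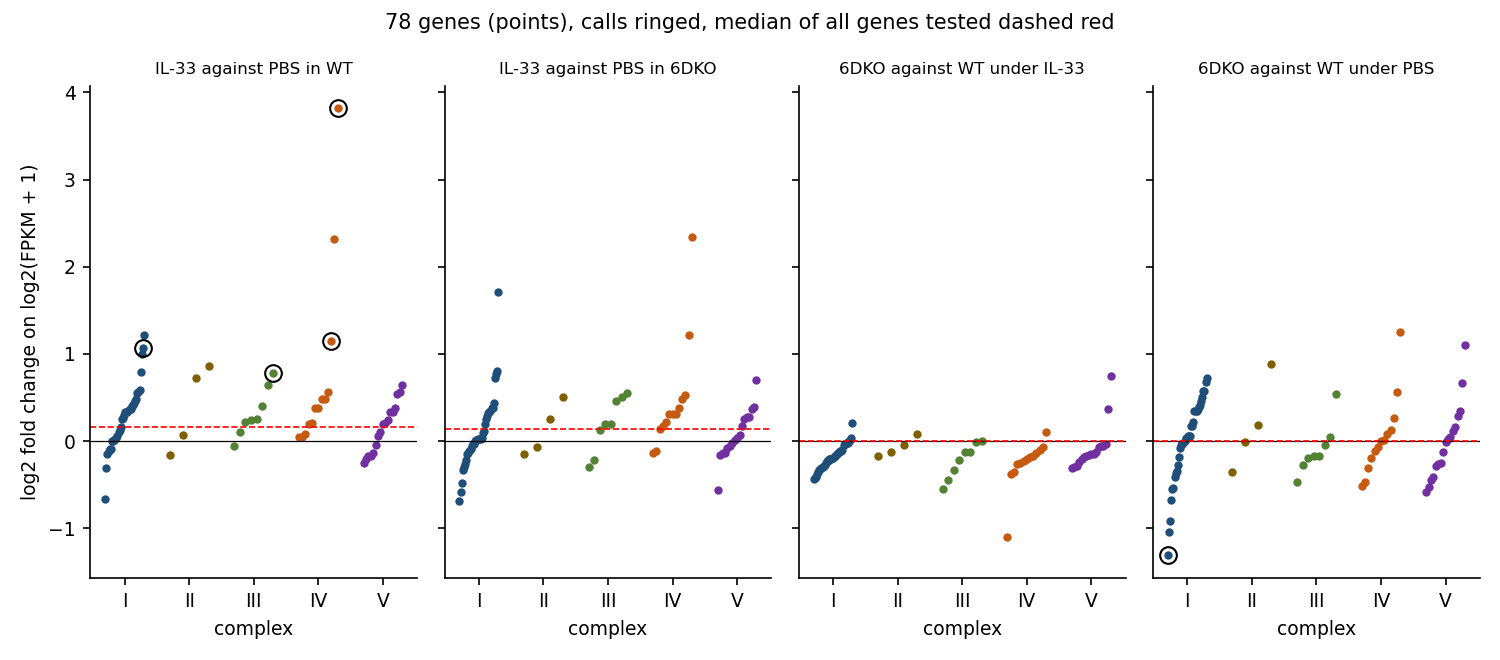
Log2 fold change on the log2(FPKM + 1) scale (vertical axis) of each of the 78 genes, grouped by complex, in 4 comparisons, with called genes ringed and the median of all genes tested as a dashed line. Between the genotypes under IL-33, 69 of the 78 points lie below 0 and none is ringed.

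Complex I takes NADH's electrons through a core of flavin and iron-sulfur subunits, to which many accessory subunits are bound. Of the 7 nuclear core genes, limma called 0 in any comparison, where at most 4.27% of all genes were called (IL-33 in WT). At an unadjusted p under 0.05 there were 0 after IL-33 in WT (17.6% of all genes), 0 in 6DKO (15.2%), 0 between the genotypes under IL-33 (1.83%), 3, all lower, under PBS (12.9%) and 0 in the interaction (5.57%). *Ndufv1*, whose product binds NADH, was at 172, 183 and 93.2 FPKM in WT PBS and 46.3, 103 and 68.5 FPKM in 6DKO PBS libraries. Its WT PBS values spread widely, and replicate 3 lay below the highest 6DKO library (fold change -1.04, adjusted p = 0.227). Under IL-33 it was at 90.3, 96.9 and 83.2 FPKM in WT and 81.4, 97.6 and 70.4 FPKM in 6DKO libraries, with overlap (interaction 0.92, adjusted p = 0.893). *Ndufs1*, the largest core subunit, was the lowest complex I gene and uneven under PBS, at 45.6, 11.8 and 12.2 FPKM in WT and 0.591, 33.2 and 34.2 FPKM in 6DKO libraries. With IL-33 it was even, at 33.4, 44.3 and 39.2 FPKM in WT and 52.1, 36.00 and 32.99 FPKM in 6DKO libraries. For *Ndufv2*, an iron-sulfur subunit, the level was 92.9 ± 22.3 FPKM (SD, n = 3) in WT PBS, 89.5 ± 12.2 in 6DKO PBS, 121 ± 2.98 in WT IL-33 and 126 ± 40.00 in 6DKO IL-33, and the groups compared overlapped.

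Among the 29 accessory genes of complex I, 27 were below 0 between the genotypes under IL-33, and in 11 the 6DKO libraries all lay below the WT libraries, where 48.4% and 7.35% of all genes did so. *Ndufa8*, an accessory subunit on the intermembrane side (chr2:36036326-36049406, GRCm38), was at 90.3, 63.96 and 100.2 FPKM in WT PBS libraries, and IL-33 libraries of WT had 206, 153 and 172 FPKM. All 3 WT IL-33 libraries were above all 3 WT PBS libraries, and the gene rose (fold change 1.07, adjusted p = 0.0262, limma). In 6DKO it was at 144, 98.01 and 171 FPKM with PBS and at 135, 136 and 141 FPKM with IL-33, so the treatments overlapped (fold change 0.03, adjusted p = 0.977). The 6DKO IL-33 libraries lay below the WT IL-33 libraries (fold change -0.35, adjusted p = 1), and the interaction was -1.03 (adjusted p = 0.787). The call in WT was lost without WT PBS replicate 2 (adjusted p = 0.0629) or WT IL-33 replicates 1 (0.121), 2 (0.0605) or 3 (0.0923), and when only the groups compared were fitted (0.0568). Over 20 alternatives its adjusted p ranged from 0.0124 to 0.121, and 15 stayed under 0.05. *Ndufa3*, a small membrane subunit and the most abundant complex I gene, was at 1135, 1092 and 1086 FPKM in WT IL-33 and 779, 911 and 808 FPKM in 6DKO IL-33 libraries. The genotypes did not overlap in this gene under IL-33 (fold change -0.41, adjusted p = 1), whereas under PBS they did, at 937 ± 146 FPKM in WT and 969 ± 430.5 FPKM in 6DKO.

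*Ndufa4* (chr6:11900292-11907497), named as a complex I gene and later placed with complex IV, was the one member called between the genotypes. Under PBS it was at 889, 866 and 647 FPKM in WT, and 6DKO libraries had 200.4, 373 and 435 FPKM. Every 6DKO PBS library lay below every WT PBS library, and the gene fell (fold change -1.31, adjusted p = 0.0358, limma). With IL-33 it was at 662, 624 and 635 FPKM in WT, and 6DKO libraries had 551, 528 and 595 FPKM, close together and without overlap. In 6DKO all IL-33 libraries were above all PBS libraries (fold change 0.80, adjusted p = 0.112), and in WT they overlapped (fold change -0.31, adjusted p = 0.566). The interaction was 1.11 (adjusted p = 0.712). The call under PBS was lost without WT PBS replicate 1 (adjusted p = 0.0747) or 2 (0.0716), and without any of the 3 WT IL-33 or the 3 6DKO IL-33 libraries (0.0687 to 0.0716). It was also lost with no filter (0.0738), quantile normalization (0.0676), array weights (0.416), only the groups compared (0.830) and the replicate block (0.0808), while the direction stayed in all 20 alternatives (fold change -1.53 to -0.98, lowest adjusted p 0.0138). Without 6DKO PBS replicate 3 the difference between PBS and IL-33 in 6DKO was called (1.03, adjusted p = 0.0433, highest 0.318 over the libraries left out).

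**Figure D3:**
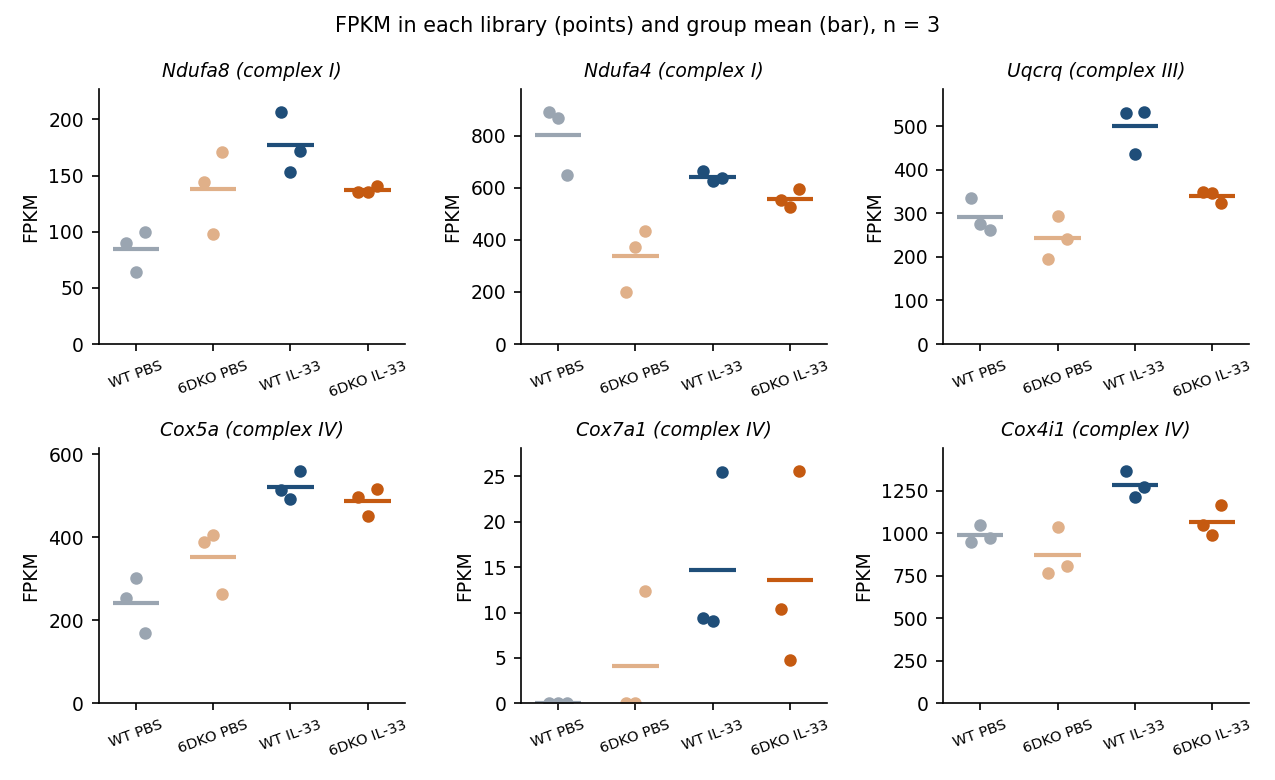
FPKM (vertical axis, from 0) of 6 genes in each library (points) and the group mean (bar, n = 3) in the 4 groups. The 6DKO PBS libraries of *Ndufa4* (200 to 435 FPKM) sit below all others, and the WT IL-33 libraries of *Uqcrq* (435 to 532 FPKM) sit above all others.

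Complex II, succinate dehydrogenase, is also an enzyme of the tricarboxylic acid cycle. *Sdhb*, its iron-sulfur subunit and the most abundant gene of the complex, was at 242, 167 and 264 FPKM in WT PBS and 401, 317 and 386 FPKM in WT IL-33 libraries. In 6DKO it was at 268, 241 and 241 FPKM with PBS and 336, 314 and 427 FPKM with IL-33. IL-33 libraries lay above PBS libraries in both genotypes, but neither difference was called (WT 0.73, adjusted p = 0.0567; 6DKO 0.51, adjusted p = 0.222). Without WT PBS replicate 3 the difference in WT passed the limit (0.86, adjusted p = 0.0357), with a range of 0.0357 to 0.201 when each library was left out. *Sdhd*, a membrane anchor, was at 51.1, 106 and 97.4 FPKM in WT PBS, below 174, 132 and 147 FPKM in 6DKO PBS, 162, 151 and 131 FPKM in WT IL-33 and 138, 143 and 127 FPKM in 6DKO IL-33 libraries. The WT PBS libraries were the lowest 3 of the 12 (IL-33 in WT 0.86, adjusted p = 0.0866; genotypes under PBS 0.88, adjusted p = 0.209; interaction -1.001, adjusted p = 0.852). Leaving out WT PBS replicate 2 brought the WT difference past the limit (1.05, adjusted p = 0.0458, highest 0.264 over the libraries left out). *Sdha*, the flavoprotein with the catalytic site, stayed at 130.1 to 212.8 FPKM in all libraries, and *Sdhc*, the other anchor, at 23.8 to 84.8 FPKM.

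Complex III passes electrons from ubiquinol through the Rieske protein to cytochrome c. *Uqcrq* (chr11:53427922-53430831), a small subunit near the ubiquinone site, was at 335, 276 and 262 FPKM in WT PBS libraries, and WT IL-33 libraries had 530.5, 435 and 532 FPKM. In 6DKO it was at 195, 293 and 242 FPKM with PBS and at 349, 347 and 325 FPKM with IL-33. The 3 WT IL-33 libraries were the highest of the 12, and the 6DKO IL-33 libraries lay between them and the 6DKO PBS libraries without overlapping either. The gene rose in WT (fold change 0.78, adjusted p = 0.0239), and in 6DKO the difference was not called (0.50, adjusted p = 0.167; interaction -0.28, adjusted p = 0.897). Between the genotypes under IL-33 the fold change was -0.55 (adjusted p = 1), and with array weights, which give less weight to libraries that vary more, it was called (-0.51, adjusted p = 0.0392; range 0.0392 to 1 over the alternatives). The WT call was lost without WT PBS replicates 2 (adjusted p = 0.0540) or 3 (0.0569) or WT IL-33 replicates 1 (0.106) or 3 (0.110) and with the replicate block (0.0571), with a range of 0.0109 to 0.110 over the alternatives.

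The other complex III genes were not called in any comparison, where at most 4.27% of all genes were called (IL-33 in WT). *Uqcrfs1*, the Rieske iron-sulfur protein, was at 117, 180.3 and 138 FPKM in WT PBS and 203, 229 and 242 FPKM in WT IL-33 libraries, without overlap (fold change 0.64, adjusted p = 0.136). In 6DKO libraries it was at 155, 168 and 103 FPKM and 199, 223 and 193 FPKM, also without overlap (fold change 0.56, adjusted p = 0.242). *Uqcrh*, the hinge protein and the most abundant gene of the complex, was at 690.5 ± 215 FPKM (SD, n = 3) in WT PBS, 588 ± 18.02 in 6DKO PBS, 778 ± 36.4 in WT IL-33 and 673 ± 47.6 in 6DKO IL-33. Under IL-33 its 6DKO libraries (637, 655 and 727 FPKM) all lay below its WT libraries (815, 779 and 742 FPKM), as did those of *Uqcr10* (-0.44) and *Uqcr11* (-0.33). *Uqcrc1*, a core protein on the matrix side, was at 215 ± 30.4 FPKM in WT and 215 ± 41.8 FPKM in 6DKO under IL-33.

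Complex IV, cytochrome c oxidase, had fold changes after IL-33 in WT above 0 in all 13 genes (58.4% of all genes), with a median of 0.38, and 2 of them were called (2.66% of all genes higher). For *Cox6b2* and *Cox7a1*, listed at 0 in all WT PBS libraries, no value below 0 was possible. *Cox5a* (chr9:57521274-57532426), a subunit on the matrix side, was at 254, 302 and 169 FPKM in WT PBS libraries, and WT IL-33 libraries had 513, 491 and 558 FPKM. Every WT IL-33 library lay above every WT PBS library, and the gene rose (fold change 1.14, adjusted p = 0.0120, limma). In 6DKO it was at 389, 406 and 264 FPKM with PBS and at 496, 450.1 and 515 FPKM with IL-33, also without overlap, and not called (0.49, adjusted p = 0.313; interaction -0.66, adjusted p = 0.893). The call in WT was lost without WT IL-33 replicate 1 (adjusted p = 0.0520) or 3 (0.0602) and when only the groups compared were fitted (0.0547), and 17 of 20 alternatives kept it (adjusted p 0.00526 to 0.0602). *Cox4i1*, the common form of a subunit that helps regulate the complex, was at 948, 1047 and 969 FPKM in WT PBS and 764, 1035 and 807 FPKM in 6DKO PBS libraries. With IL-33 it was at 1363, 1215 and 1271 FPKM in WT and 1049, 989 and 1165 FPKM in 6DKO libraries. The WT IL-33 libraries were the highest of the 12, but no comparison was called (IL-33 in WT 0.38, adjusted p = 0.134; genotypes under IL-33 -0.27, adjusted p = 1).

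Several complex IV subunits have a common form and a form bound to certain tissues. *Cox7a1* (chr7:30184144-30186078), the heart and muscle form of subunit VIIa, was listed at 0 in all 3 WT PBS libraries, and WT IL-33 libraries had 9.43, 9.12 and 25.5 FPKM. In 6DKO it was at 0, 0 and 12.4 FPKM with PBS and at 10.3, 4.79 and 25.6 FPKM with IL-33. It was thus above 0 in every IL-33 library and in 1 of 6 PBS libraries, and the 6DKO libraries overlapped. The gene rose in WT (adjusted p = 0.0440, limma), from listed at 0 to a mean of 14.7 ± 9.35 FPKM (SD, n = 3), and no fold is given against a group at 0. The call was lost without WT PBS replicates 1, 2 or 3 (adjusted p 0.0943, 0.0800 and 0.0748), WT IL-33 replicates 1, 2 or 3 (0.109, 0.1002 and 0.180) or 6DKO IL-33 replicates 1, 2 or 3 (0.0709, 0.0577 and 0.0539). It was also lost with no filter (0.0790) and with array weights (0.0656), and 9 of 20 alternatives kept it (0.00635 to 0.180). In 6DKO it was called only without PBS replicate 3 (adjusted p = 0.0219, highest 0.603 over the libraries left out), the PBS library in which it was measured, and the interaction was not called (adjusted p = 0.897). *Cox6b2*, the testis form of subunit VIb, was listed at 0 in all 6 PBS libraries and was at 7.07, 14.3 and 0 FPKM in WT IL-33 and 2.98, 0 and 2.16 FPKM in 6DKO IL-33 libraries. It passed the limit of 1 FPKM through IL-33 libraries alone, so its being higher there is no independent result. Its difference in WT was not called (adjusted p = 0.173, limma). It was called only without WT IL-33 replicate 3, the WT IL-33 library in which it was listed at 0 (adjusted p = 0.0183, highest 0.498 over the libraries left out). Under IL-33 the genotypes overlapped in this gene (fold change -1.10, adjusted p = 1; interaction adjusted p = 0.901).

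*Cox4i2*, a form of subunit IV known from the lung, was above 0 in 6DKO PBS replicate 2 (4.11 FPKM) and WT IL-33 replicate 2 (0.214 FPKM) and listed at 0 in the other libraries. *Cox6a2*, the muscle form of subunit VIa, was at 1.03 FPKM in 6DKO IL-33 replicate 3 and listed at 0 elsewhere. The common forms were far higher: 830.0 FPKM for *Cox6a1*, 827 for *Cox6b1*, 311 for *Cox7a2*, 176 for *Cox7b* and 857 for *Cox8a*, as means over 12 libraries. In all 5 of these the 6DKO IL-33 libraries lay below the WT IL-33 libraries, with fold changes of -0.21, -0.35, -0.38, -0.18 and -0.25 in the same order, and each had an adjusted p of 1. The 6DKO libraries lay lower without overlap in 7 of the 13 complex IV genes, against 29 of the 78 and 7.35% of all genes. Among the 1015 abundant genes outside the 78 this held for 190. *Cox6b1*, for example, was at 949.5, 967 and 1009 FPKM in WT IL-33 and 776, 713 and 806 FPKM in 6DKO IL-33 libraries. After IL-33 in WT its fold change was 0.49 (adjusted p = 0.187), with no overlap, and in 6DKO it was -0.14 (adjusted p = 0.783; interaction -0.62, adjusted p = 0.880). *Cox8a* was at 617, 1037 and 549 FPKM in WT PBS and 1057, 1078 and 989.6 FPKM in WT IL-33 libraries. WT PBS replicate 2 reached the IL-33 libraries, and without it the difference was called (0.84, adjusted p = 0.00342, highest 0.334 over the libraries left out), against 0.56 (adjusted p = 0.142) with all libraries.

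Complex V, the ATP synthase, has a catalytic head, F1, driven by a ring of c subunits in the membrane. Of its 17 genes 0 were called in any comparison. Of all genes, 4.27% were called after IL-33 in WT and 2.84% in 6DKO. Between the genotypes it was 0.579% under PBS and 0.00878% under IL-33. IL-33 minus PBS in the per-library mean of complex V was the smallest of the 5 complexes in both genotypes. *Atp5b*, the catalytic beta subunit and the most abundant gene of the complex, was at 954, 1306 and 1023 FPKM in WT PBS and 839, 902 and 929 FPKM in 6DKO PBS libraries. With IL-33 it was at 961, 927 and 1016 FPKM in WT and 924, 913 and 796 FPKM in 6DKO libraries. In both treatments the 6DKO libraries lay below the WT libraries (PBS -0.29, adjusted p = 0.368; IL-33 -0.14, adjusted p = 1), and IL-33 gave -0.16 in WT (adjusted p = 0.564). *Atp5a1*, the alpha subunit beside it, was at 277 ± 42.3 FPKM (SD, n = 3) in WT PBS, 349 ± 29.3 in 6DKO PBS, 325 ± 18.8 in WT IL-33 and 313 ± 15.7 in 6DKO IL-33. All 5 genes of F1 were below 0 between the genotypes under IL-33 (88.5% of the 78 genes, 48.4% of all genes), and in 4 of them the libraries did not overlap (7.35% of all genes). Of the 1015 abundant genes outside the 78, 62.7% were below 0, and 190 were lower without overlap.

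*Atp5g1*, *Atp5g2* and *Atp5g3* encode the same mature c subunit. Their means over 12 libraries were 231, 406 and 522 FPKM. *Atp5g3* was at 337, 438 and 527 FPKM in WT PBS and 681, 665 and 558 FPKM in WT IL-33 libraries, without overlap (fold change 0.57, adjusted p = 0.196). For *Atp5g1* the corresponding values were 242, 312 and 221 FPKM and 244, 226 and 275 FPKM, with overlap (fold change -0.04). Its 6DKO PBS libraries (155, 216 and 197 FPKM) lay below both the WT PBS and the 6DKO IL-33 libraries (238, 225 and 218 FPKM), with an adjusted p of 0.326 and 0.505. *Atp5g2* was at 432 ± 11.2 FPKM in WT and 386 ± 14.3 FPKM in 6DKO under IL-33, without overlap (fold change -0.16, adjusted p = 1).

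The 2 genes whose 6DKO IL-33 libraries all lay above the WT libraries match the symbol but are not catalytic parts of the chain. *Atp5s*, also called *Dmac2l*, was at 8.25, 6.26 and 9.95 FPKM in WT IL-33 and 21.2, 11.3 and 11.9 FPKM in 6DKO IL-33 libraries. Under PBS it was at 8.55, 14.6 and 6.58 FPKM in WT and 17.05, 38.6 and 14.7 FPKM in 6DKO libraries. The 6DKO libraries were above the WT libraries in both treatments, and neither difference was called (IL-33 0.75, adjusted p = 1; PBS 1.102, adjusted p = 0.347). *Atp5sl*, also called *Dmac2* and known as an assembly factor of complex I, was at 9.64, 10.4 and 10.7 FPKM in WT IL-33 and 14.1, 11.1 and 16.00 FPKM in 6DKO IL-33 libraries. Its 6DKO values were all above its WT values with IL-33 (fold change 0.37, adjusted p = 1), and under PBS its values were 18.9, 2.41 and 8.55 FPKM in WT and 2.54, 15.4 and 11.2 FPKM in 6DKO, with overlap.

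Genes that build and serve the complexes were read from lists. Of 46 assembly factors tested, limma called 1 higher and 0 lower after IL-33 in WT, against 2.66% and 1.61% of all genes, with 8 higher and 1 lower at an unadjusted p under 0.05 (17.6% of all genes). In 6DKO it called 0, against 1.75% higher and 1.1% lower of all genes, with 5 higher and 2 lower at an unadjusted p under 0.05 (15.2% of all genes). The gene that rose in WT was *Cox17*, a copper chaperone for complex IV, at 208, 148 and 198 FPKM in WT PBS and 438, 493 and 455 FPKM in WT IL-33 libraries, with no overlap (fold change 1.33, adjusted p = 0.00504). In 6DKO *Cox17* was at 219, 198 and 360.4 FPKM with PBS and 421, 505 and 462 FPKM with IL-33, again with no overlap (fold change 0.88, adjusted p = 0.0530; interaction -0.45, adjusted p = 0.897). Under PBS 1 of the 46 assembly factors was called between the genotypes, against 0.579% of all genes: *Bcs1l*, which inserts the Rieske protein into complex III. All 3 WT PBS libraries list it at 0, and the 6DKO PBS libraries had 21.1, 12.8 and 3.29 FPKM (adjusted p = 0.0299). With IL-33 it was at 2.47, 4.52 and 3.90 FPKM in WT IL-33 and 1.91, 2.77 and 1.64 FPKM in 6DKO IL-33 libraries. For 6DKO against WT under IL-33, 28 of the 46 assembly factors (60.9%) were above 0, against 50.7% of all genes, with a median of 0.07, and limma called 0, against 0.00878% (0 at an unadjusted p under 0.05, against 1.83%).

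Of 77 mitochondrial ribosome genes, 1 rose in WT after IL-33 (*Mrpl54*), against 2.66% of all genes, and 1 in 6DKO (*Mrpl34*), against 1.75%. *Mrpl54* was at 30.6, 45.4 and 59.3 FPKM in WT PBS and 103, 129 and 155 FPKM in WT IL-33 libraries, without overlap (fold change 1.52, adjusted p = 0.0109). In 6DKO *Mrpl54* was at 85.8, 60.8 and 49.8 FPKM with PBS and 113, 114 and 101 FPKM with IL-33, also without overlap and not called (fold change 0.76, adjusted p = 0.211; interaction -0.76, adjusted p = 0.897). *Mrpl34* was at 46.1, 43.95 and 51.9 FPKM in WT PBS and 13.6, 5.19 and 17.1 FPKM in 6DKO PBS libraries and fell in 6DKO under PBS (-2.03, adjusted p = 0.0354). With IL-33 it was at 48.5, 49.2 and 42.4 FPKM in WT and 42.7, 31.7 and 32.5 FPKM in 6DKO libraries (IL-33 in 6DKO 1.62, adjusted p = 0.0371; interaction 1.64, adjusted p = 0.766). Of the 77 genes 56 (72.7%) were below 0 between the genotypes under IL-33, with a median of -0.18. The share was 48.4% of all genes and 62.7% of abundant genes outside the 78, although most of the 77 were under 100 FPKM. Of the 77, limma called 0, against 0.00878% of all genes (0 at an unadjusted p under 0.05, against 1.83%). Of 18 other subunits and carriers, 17 (94.4%) were below 0 in this comparison, against 48.4% of all genes and 62.7% of abundant genes outside the 78, with a median of -0.22. Of the 18, limma called 0 here, against 0.00878% of all genes (0 at an unadjusted p under 0.05, against 1.83%). Of the 18, 1 rose after IL-33 in 6DKO, against 1.75% of all genes: *Slc25a5*, an ADP/ATP carrier, went from 496, 453 and 529 FPKM to 725, 837 and 825 FPKM (fold change 0.69, adjusted p = 0.0481), and in WT was at 776, 904 and 548 FPKM with PBS and 963, 861 and 951 FPKM with IL-33. *Cyc1*, cytochrome c1 of complex III, was at 184, 188 and 199 FPKM in WT IL-33 and 182, 159 and 150.1 FPKM in 6DKO IL-33 libraries, without overlap (fold change -0.22, adjusted p = 1). *Cycs*, cytochrome c itself, was at 143, 120.2 and 146 FPKM and 131, 99.8 and 98.2 FPKM, with overlap.

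Of 14 tricarboxylic acid cycle genes 1 rose in WT after IL-33, against 2.66% of all genes: *Cs*, citrate synthase, which was at 34.2, 66.1 and 46.3 FPKM with PBS and 91.00, 93.8 and 115 FPKM with IL-33 (fold change 1.06, adjusted p = 0.0442). In 6DKO *Cs* was at 58.2, 67.4 and 50.9 FPKM with PBS and 85.8, 105 and 72.4 FPKM with IL-33 (fold change 0.56, adjusted p = 0.337), and between the genotypes under IL-33 9 of the 14 genes were below 0 (64.3%, against 48.4% of all genes), with a median of -0.04. Of 16 regulators of mitochondrial transcription and biogenesis tested, 1 was called higher in WT after IL-33, against 2.66% of all genes, and 1 between the genotypes under PBS, against 0.579%, the same gene, *Tfb2m*, a mitochondrial transcription factor. *Tfb2m* was at 0, 0 and 1.42 FPKM in WT PBS, 20.9, 7.43 and 13.01 FPKM in 6DKO PBS, 10.8, 9.62 and 7.75 FPKM in WT IL-33 and 14.9, 7.44 and 10.8 FPKM in 6DKO IL-33 libraries. The WT PBS libraries were the low ones (IL-33 in WT 2.94, adjusted p = 0.00967; genotypes under PBS 3.36, adjusted p = 0.0221; interaction -3.18, adjusted p = 0.422). Between the genotypes under IL-33, 12 of the 16 regulators (75%) were above 0, against 50.7% of all genes, with a median of 0.16. Here limma called 0, against 0.00878% of all genes. *Ppargc1a*, a coactivator of mitochondrial genes, was listed at 0 in all 12 libraries, and *Ppargc1b* reached at most 2.27 FPKM. *Nrf1* was at 23.3, 23.3 and 24.9 FPKM in WT IL-33 and 28.7, 17.5 and 21.1 FPKM in 6DKO IL-33 libraries, and *Tfam*, which packs mitochondrial DNA, at 5.54, 2.99 and 4.78 and 4.65, 8.92 and 4.95 FPKM. *Myc* was at 55.5, 71.8 and 68.1 FPKM in WT IL-33 libraries and 79.04, 90.00 and 121 FPKM in 6DKO IL-33 libraries, all above the WT libraries (fold change 0.55, adjusted p = 1).

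Some other markers differed between the treatments, and not all genes of a list went the same way. Of 8 epithelial markers *Epcam* was the most abundant in 5 of 6 PBS libraries, and the sums were 38.1, 33.8 and 32.2 FPKM in WT PBS and 54.0, 71.8 and 44.3 FPKM in 6DKO PBS libraries, against 21.7, 24.5 and 15.1 FPKM in WT IL-33 and 24.2, 8.30 and 109 FPKM in 6DKO IL-33 libraries, where *Sftpc* reached 97.2 FPKM in replicate 3. In 6DKO PBS replicate 2 *Scgb1a1* (22.4 FPKM) was the most abundant of them. Of 12 granulocyte and mast cell markers 11 were in the files, with *Cpa3* the most abundant in every library, and sums of 51.6 to 101.3 FPKM in the PBS and 27.4 to 48.8 FPKM in the IL-33 libraries. Their mean log2(FPKM + 1) overlapped, at 0.804 to 1.05 with PBS and 0.767 to 1.05 with IL-33. Of 5 erythroid markers 4 were in the files, with alpha globin genes the most abundant, and sums of 12.8 to 45.4 FPKM in the PBS and 3.80 to 9.76 FPKM in the IL-33 libraries. Their mean log2(FPKM + 1) also overlapped, at 1.07 to 1.79 with PBS and 0.625 to 1.28 with IL-33. The part of these markers in the differences between PBS and IL-33 libraries was not tested.

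By position the genes were scattered. In the GENCODE annotation of GRCm38, the build also called mm10, 77 of the 78 were placed, on 19 chromosomes, with at most 7 on any of them (chromosome 7), and 1 gene (*Atp5o*) was not placed under its symbol. Exons of 26 members overlap those of another gene, for example 39.0% of the exon bases of *Ndufb6* with *Smim27* and 30.0% of those of *Ndufa13* with *Tssk6*, both on the opposite strand. Of the called genes, *Cox5a* shares 12.8% of its exon bases with a gene on the opposite strand, and *Ndufa8*, *Uqcrq*, *Cox7a1* and *Ndufa4* share none. Genes of this kind have many copies in the genome. Counted in stretches of 75 bases, 27 of the 78 have at least 1 stretch that also occurs in transcripts of another gene, 14 have at least 10% and 1 has at least 50% (*Atp5l*, 63.4%). The 5 genes called in a comparison share no such stretch.

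The promoters were searched for the letters that are known from promoters of nuclear mitochondrial genes, on both strands, from 250 bases before to 50 bases after the start (RefSeq, GRCm38.p6). Promoters were found for 67 of the 78 genes, 64 by symbol and 3 by an older symbol. The letters GCGCATGCG, the core of the site of the factor NRF1, occurred in 8 of the 67 (11.9%), against 527 of all 27025 gene symbols with a promoter (1.95%). In most of these promoters the match also reads as a match on the other strand, shifted by a base, since the letters nearly equal their own reverse complement. The letters AAGATGGCG, the site of YY1 that often spans a start codon, occurred in 8 of the 67 (11.9%), against 1.64% of all symbols. CCGGAAGT, the site of ETS factors such as GABPA, occurred in 5 (*Atp5h*, *Cox8a*, *Ndufs3*, *Uqcr11* and *Uqcrh*, 7.46%), against 4.31% of all. At least 1 of the 3 occurred in 20 members. Fold changes of 6DKO against WT under IL-33 were below 0 in 8 of the 8 genes with the NRF1 letters, 5 of the 5 with the ETS letters and 7 of the 8 with the YY1 letters, against 88.5% of the 78 genes. After IL-33 in WT, 7 of the 8, 2 of the 5 (median -0.0553) and 8 of the 8 were above 0, against 82.1% of the 78 genes. A match is a description and not a bound site.

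The 8 stretches with the NRF1 letters are shown because they come from complexes I, III, IV and V, with the match in capitals as read 5′ to 3′ on the strand of the gene. That of *Ndufa8*, which rose in WT, lies at chr2:36049329-36049357, and the match in it begins 9 bases before the start of transcription.
Ndufa8: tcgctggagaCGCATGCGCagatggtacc
Ndufa11: cctgcactgcGCGCATGCGcgcacgcctt
Uqcrc1: actccgctctGCGCATGCGcagcgcggct
Uqcr11: atcgccttcaCGCATGCGCtatacgtctg
Cox6a1: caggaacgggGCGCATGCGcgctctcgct
Atp5g2: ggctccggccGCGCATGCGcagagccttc
Atp5k: tttcactgcgGCGCATGCGcctttctggc
Atp5l: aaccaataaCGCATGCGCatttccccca

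The 8 stretches with the YY1 letters are shown for their position: in 7 of the 8 genes a match begins 22 to 35 bases after a start of transcription, and in *Atp5j* it begins 88 bases before it. All were read as written on the strand of the gene.
Ndufa9: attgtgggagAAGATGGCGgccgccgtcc
Ndufc1: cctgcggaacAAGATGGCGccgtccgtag
Ndufs4: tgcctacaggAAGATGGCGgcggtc
Ndufs6: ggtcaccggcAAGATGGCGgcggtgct
Ndufs7: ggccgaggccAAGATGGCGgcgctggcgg
Atp5j: aagtgtaggaAAGATGGCGgagtcttagc
Atp5j2: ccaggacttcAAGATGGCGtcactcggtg
Atp5sl: gttacctggcAAGATGGCGgcgcccagag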

How the data were processed

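RNA of lung ILC2s was measured in 12 libraries, and the authors deposited FPKM values for 24346 gene symbols in each. Per the labels, reads were mapped to mm10 with TopHat2 2.1.1 and Bowtie2, and values were made with Cuffdiff 2.2.1; the study's methods name another TopHat version and Cuffnorm in place of Cuffdiff, and the annotation is not given in the sources used here. Values were taken as log2(FPKM + 1), and 11395 genes (mean of 0.5 FPKM or more) were fitted with limma 3.58.1 in R 4.3.3 (4 group means, 8 residual degrees of freedom, eBayes with a trend), two-sided, with Benjamini-Hochberg adjustment over all genes tested. Other values came from Python 3.11.15, numpy 2.4.6 and pandas 2.3.3. Named were called members, the most abundant of each complex, core and isoform genes, the largest differences between the genotypes and the members nearest the limit; other members named were chosen after their values were seen. Members and lists were chosen with earlier results of these data known. Also run: pseudocount 0.1, a filter at 2 FPKM or none, scaling by quantiles or median ratios, array weights, a fit of only the groups compared, the replicate block and leaving out each library. The fit was also run on simulated data, and no value given here comes from that run.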

Additional observations from a re-analysis of the deposited data

How the results depend on the processing

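The directions of the mean over the 78 genes held under all alternatives tried for IL-33 against PBS in both genotypes and for 6DKO against WT under IL-33. For 6DKO against WT under IL-33 the difference moved from -0.17 to -0.12 with quantile normalization. For 6DKO against WT under PBS, where it was 0.00, it reversed to -0.0133 over the 76 members above 0 in all libraries. When each library was left out in turn, the differences ranged from 0.27 to 0.41 (IL-33 in WT), from 0.07 to 0.25 (IL-33 in 6DKO), from -0.19 to -0.14 (genotypes under IL-33) and from -0.0758 to 0.106 (genotypes under PBS).

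The number of the 78 genes called in WT after IL-33 was 2 instead of 4 when only the groups compared were fitted, and 3 with no filter and with array weights. The cause was not tested. Between the genotypes under IL-33 it was 1 instead of 0 with array weights, and the cause was not tested. Between the genotypes under PBS it was 0 instead of 1 with no filter, quantile normalization, array weights, only the groups compared or the replicate block, and the cause was not tested. Leaving out each library gave 0 to 6 calls in WT after IL-33, 0 to 2 in 6DKO after IL-33, 0 to 0 between the genotypes under IL-33, 0 to 1 between the genotypes under PBS and 0 to 0 for the interaction. Over the same fits 1.7% to 6.07% of all genes were called in WT after IL-33 and 1.01% to 3.88% in 6DKO. Between the genotypes under PBS 0.185% to 1.79% of all genes were called. Of 41 single-gene differences followed, 40 kept their direction under every alternative, and 1 did not: *Cox7a1*, 6DKO against WT under PBS, was 0 without 6DKO PBS replicate 3, the PBS library in which it was measured, and 1.87 without 6DKO PBS replicate 1 or 2. Its values over all alternatives reached 2.32 (pseudocount 0.1). All are differences of mean log2 values against a WT group listed at 0, and not folds. Under the alternatives these differences lost a call 37 times and gained one 8 times.

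With the replicate number as a replicate block, limma called 4 of the 78 genes in WT after IL-33 (*Cox5a*, *Cox7a1*, *Ndufa8* and *Sdhb*), 0 in 6DKO after IL-33, 0 between the genotypes in either treatment and 0 in the interaction. Equal numbers did not pair samples: over 18 pairs of groups and replicates the correlation of the residuals was -0.05 to 0.04, and 0 exceeded 0.1.

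Under IL-33, the number of the 78 genes at an unadjusted p under 0.05 between the genotypes was 1 in the fit of all libraries, 22 with the IL-33 groups alone and 23 with array weights, and the cause was not tested. The PBS libraries were more variable than the IL-33 libraries and had more genes at 0, and most were shallower (6DKO PBS replicate 3 was not: 0.998, against 0.968 to 1.39 with IL-33), so a gene listed at 0 there may be expressed. Calls of genes outside the 78 were not followed through the alternatives. Values are relative to all RNA of a library, so a shift in all genes cannot be seen. Subunits encoded by the mitochondrial genome are not in these sets, and protein, respiration and cell numbers have no values here.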
